A study of Gallus gallus with 12 samples.

Results

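The DNBCAT effect beyond the mCherry effect was measured as a difference of differences: right minus left otocyst in 3 embryos electroporated with DNBCAT, minus right minus left otocyst in 3 embryos electroporated with mCherry. All 12 otocysts of the series, from 6 White Leghorn chicken embryos, entered it. The right otic cup or placode of each embryo was electroporated in ovo, and both otocysts were collected 24 h later, at embryonic day 3, and freed of mesenchyme. The DNBCAT embryos (Wnt LOF EP 24 h, numbered 50, 51 and 52) received the Tol2 plasmid T2-mCherry-T2A-3xHAtag-Bcat-LOF, which encodes mCherry together with a truncated β-catenin that lacks its N and C termini. The mCherry embryos (Control EP, numbered 60, 61 and 62) received T2-mCherry alone. The left otocyst of every embryo was untransfected, and each set of embryos has its own left otocysts, so the DNBCAT and mCherry effects share no library. Some features limit these ears as a model: transfection was mosaic, so a right otocyst mixes transfected and untransfected cells, embryos with well-transfected ears were selected, and the chickens are not inbred. Construct reads were not analysed here, and the transfected side was taken from the labels.

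Wnt ligands act through Frizzled receptors to stabilize β-catenin, which enters the nucleus and activates genes together with LEF/TCF factors. AXIN2 is a widely used feedback target of this route, and LGR receptors and secreted antagonists such as the SFRP and DKK proteins set how strongly cells respond. In the early chicken ear Wnt activity is graded, highest dorsally, and takes part in placing the neurosensory domains. DNBCAT is used to block the transcriptional output of β-catenin, and the mCherry construct is meant to show what electroporation and the reporter do by themselves. The electroporated otocyst was the right one in every embryo. An effect of electroporation or reporter therefore cannot be told apart from a difference between right and left ears.

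Levels are given as CPM, estimated counts scaled to the TMM-normalized library size, always in the order of embryos 50, 51 and 52 for DNBCAT and 60, 61 and 62 for mCherry. Each otocyst held 13157404 to 16097100 estimated counts. The right otocyst of embryo 51 stood apart: its TMM factor was 0.772 (0.981 to 1.07 in the other 11 libraries), its 10 most abundant transcripts took 12.4% of its counts (4.48% to 5.84% in the others), and it had the fewest detected transcripts (20443, against 20871 to 21499). Gene names were paired only through the study's lists of regulated transcripts, its Wnt expression values and its mesenchymal markers. These name 827 transcripts, of which 812 were tested, and other transcripts are counted without names. Of the tested names, 91 are on the study's own DNBCAT list, which was selected on the same DNBCAT libraries, so a DNBCAT response of those genes, or their difference from mCherry, is not independent evidence. That selection did not use the mCherry libraries. In these bulk samples, fewer cells of a type and less RNA per cell cannot be told apart.

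Across 19298 transcripts, no response differed between the constructs at an adjusted p under 0.05 (quasi-likelihood test of edgeR, Benjamini-Hochberg adjusted over all of them, smallest adjusted p 0.567). At an unadjusted p under 0.05, 842 transcripts (4.36%) differed, 415 with a higher (2.15%) and 427 with a lower (2.21%) response to DNBCAT. This count was 1699 without embryo 52 and 533 without embryo 60. All adjusted p-values of single transcripts given with a standard error come from this edgeR fit, and higher or lower in the difference means an unadjusted p under 0.05 there, which none kept after adjustment. The median standard error of a difference was 0.32 on the log2 scale, so differences of about that size were not detectable in a typical transcript. DESeq2's Wald test gave 64 adjusted calls for the difference, 26 higher and 38 lower, which included 21 named transcripts, all on the study's DNBCAT list. On the TPM scale the unadjusted split was 132 higher and 665 lower, and the median difference of all transcripts moved to -0.19. Taken one construct at a time, 2463 transcripts (12.8%) had an unadjusted p under 0.05 for DNBCAT right against left (6.97% higher and 5.79% lower) and 406 (2.10%) for mCherry (1.02% higher and 1.09% lower), with 0 adjusted calls each by edgeR (smallest adjusted p 0.0792 and 0.108). The p-values measure only the spread between these embryos.

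Most of the unadjusted differences lay on the DNBCAT side, though their 4.36% is below the share that a p under 0.05 passes on average where nothing differs. The DNBCAT log2 ratios also spread more. Among transcripts with at least 10 counts in every library, their SD was 0.45, 0.61 and 0.41 with DNBCAT, against 0.37, 0.37 and 0.39 with mCherry. The part of this wider spread in the sizes below was not tested. The DNBCAT effect was the larger in size in 700 of the 842 transcripts (83.1%, and 3.63% of all tested), 638 of the 842 (3.31% of all) had a DNBCAT effect with an unadjusted p under 0.05, and 120 (0.622% of all) had an mCherry effect below that value. Among the 91 tested members of the study's DNBCAT list, 21 were higher and 51 lower with an unadjusted p under 0.05 in the difference, of which nothing is read because of how the list was made. Among the 721 names not on it, 19 were higher and 22 lower (5.69%, against 4.36% of all transcripts), and the 3 DNBCAT log2 ratios did not overlap the 3 mCherry ones in 87 (12.1%, against 12% of all transcripts), 38 with DNBCAT higher (6.05% of all transcripts were) and 49 with DNBCAT lower (5.91% of all were). The median mCherry effect of the list members was -0.10, beside a median DNBCAT effect of -0.66. Of the 91, 78 had the same direction with both constructs, and so had 506 of the 721 names not on the list.

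**Figure D1:**
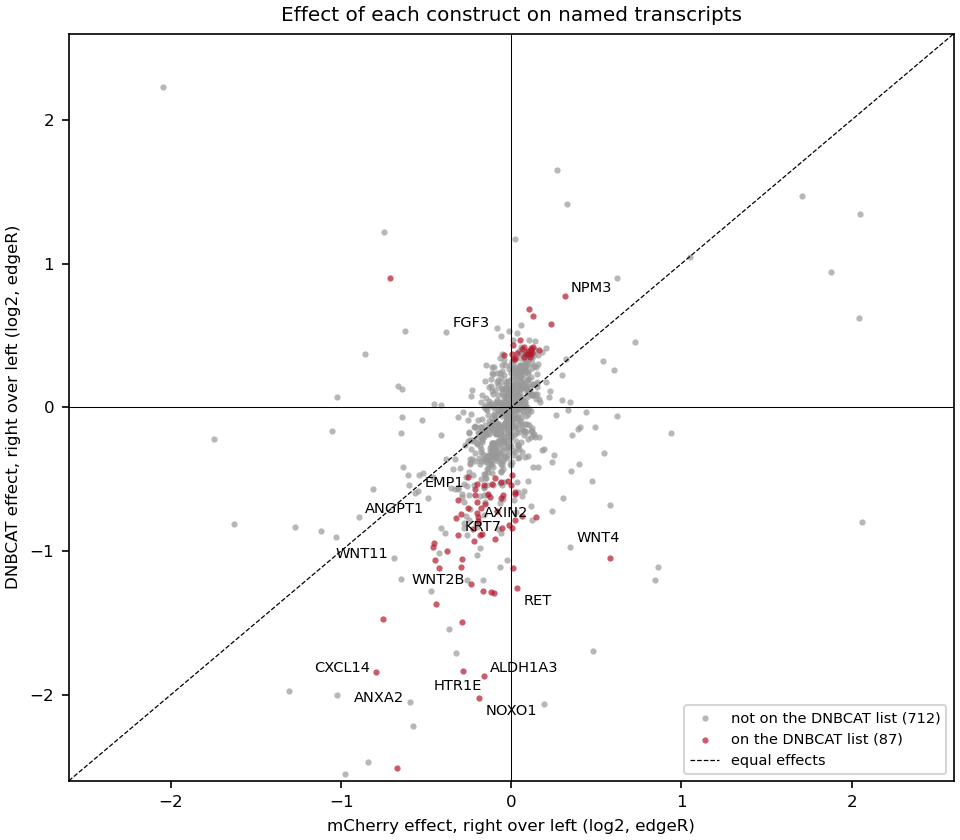
Right-over-left effect of DNBCAT (vertical axis) and of mCherry (horizontal axis) on named transcripts, as edgeR log2 fold changes; each point is 1 transcript, red points are on the study's DNBCAT list, and the dashed line marks equal effects. Of the 812 tested, 799 are drawn and 13 lie outside the axes; WNT2B, NOXO1 and ALDH1A3 sit far below the line, and EMP1 and ANGPT1 sit close to it.

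WNT2B, a ligand of the β-catenin route, had the smallest p of the Wnt genes in the difference. It is on the study's DNBCAT list, so this difference is not independent evidence. WNT2B (ENSGALT00000059836.3) was at 19.98, 19.7 and 18.3 CPM in the DNBCAT right otocysts, against 43.8, 45.6 and 46.96 CPM in the left ones. With mCherry, WNT2B was at 39.6, 48.8 and 40.3 CPM on the right, against 47.6, 51.2 and 52.1 CPM on the left. All 3 DNBCAT right otocysts were below every other otocyst, and the mCherry right otocysts were each slightly below their own left one. The effects were -1.23 with DNBCAT and -0.24 with mCherry, and the difference was -0.997 (SE 0.12, 95% interval -1.30 to -0.70, adjusted p = 0.670). Leaving out 1 embryo at a time kept the difference between -1.06 and -0.91. With 3 against 3 embryos, the exact permutation test cannot go below a two-sided p of 0.1, which WNT2B and every other non-overlapping transcript reached.

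All 9 Wnt ligands measured had a negative DNBCAT effect, and 5 of the 9 had a negative mCherry effect. Negative DNBCAT effects were not particular to ligands: all 5 β-catenin and LEF/TCF genes and 33 of 34 neuronal transcripts had them. In the difference, 0 ligands were higher and 2 lower at an unadjusted p under 0.05, against 2.15% and 2.21% of all transcripts. The 8 ligands not on the study's DNBCAT list gave 1 lower. WNT4 (ENSGALT00000080352.2) was at 4.98, 1.87 and 2.06 CPM in the DNBCAT right otocysts, against 6.20, 5.12 and 4.63 CPM in the left ones. With mCherry, WNT4 was at 7.52, 4.93 and 5.93 CPM on the right, against 3.71, 5.53 and 5.17 CPM on the left. WNT4, a ligand that often acts without β-catenin, was lower on the right in every DNBCAT embryo and on balance higher on the right with mCherry, and its difference was -1.32 (SE 0.49, 95% interval -2.49 to -0.14, adjusted p = 0.935). This transcript was scarce, and it had an unadjusted p above 0.05 without embryo 51, 52, 60 or 62 (differences of -1.08, -1.21, -0.99 and -1.38). WNT5A, another ligand known mainly for β-catenin-independent signalling, had log2 ratios of -0.36, -0.71 and -0.32 with DNBCAT and -0.04, -0.19 and -0.25 with mCherry. The WNT5A groups did not overlap, with a difference of -0.30 (95% interval -0.64 to 0.04). WNT11 was lower on the right with both constructs (-1.05 with DNBCAT and -0.69 with mCherry), and its difference was -0.36 (95% interval -1.25 to 0.54). The intervals of WNT3A, WNT5B, WNT6, WNT7B and WNT9A all held 0, with differences of -0.80, -0.28, -1.63, -0.34 and -0.15 in that order, and WNT6 averaged only 0.357 CPM in the DNBCAT right otocysts.

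Among the modulators, AXIN2, the feedback inhibitor of β-catenin, was lower on the DNBCAT side. AXIN2 and SFRP1 are on the study's DNBCAT list, so their differences are not independent evidence. AXIN2 (ENSGALT00000078960.2) was at 18.97, 15.9 and 27.7 CPM in the DNBCAT right otocysts, against 35.5, 27.8 and 44.3 CPM in the left ones. With mCherry, AXIN2 was at 47.4, 33.6 and 28.5 CPM on the right, against 49.4, 36.4 and 38.2 CPM on the left. All 3 DNBCAT right otocysts lay below every other otocyst, embryo 52 only just, and each was further below its own left one than in any mCherry pair. The difference was -0.60 (SE 0.14, 95% interval -0.94 to -0.26, adjusted p = 0.935), and it stayed between -0.70 and -0.53 as embryos were left out in turn. LGR5 and LGR4, receptors for R-spondins that raise Wnt signalling, had differences of -0.46 (95% interval -1.04 to 0.11) and -0.34 (95% interval -0.74 to 0.05), in each case with log2 ratios that did not overlap and were lower in all 6 embryos. APCDD1, a membrane inhibitor of the pathway and one of its targets, had effects of -0.79 with DNBCAT and -0.25 with mCherry, and the difference of -0.54 (95% interval -1.17 to 0.09) went with overlapping groups, embryo 52 having a log2 ratio of -0.18. The secreted antagonist SFRP1 had a difference of -0.49 (95% interval -1.08 to 0.10), with the mCherry ratios split between -0.40 in embryo 61 and 0.51 in embryo 62. The other 10 modulators, among them SFRP2, DKK3, NOTUM, DACT2, GSK3B and AXIN1, had intervals that held 0.

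β-catenin itself and its partners showed no difference beyond the spread. CTNNB1 (ENSGALT00000062180.3) was at 1422, 1085 and 1292 CPM in the DNBCAT right otocysts, against 1410, 1392 and 1308 CPM in the left ones. With mCherry, CTNNB1 was at 1358, 1451 and 1434 CPM on the right, against 1351, 1525 and 1463 CPM on the left. The groups overlapped, embryo 51 had the only log2 ratio below -0.10 (-0.36), and the difference was -0.09 (95% interval -0.37 to 0.19). TCF7L2 had a difference of 0.01 (95% interval -0.34 to 0.37) and the receptor FZD7 one of 0.04 (95% interval -0.16 to 0.25). Intervals for LEF1, TCF7 and TCF7L1 were wide, and these transcripts averaged under 10 CPM. None of the 8 Frizzled receptors passed an unadjusted p under 0.05, and FZD10, at 0.269, 3.99 and 5.57 CPM in the DNBCAT right otocysts and 36.4, 0.666 and 9.97 CPM in the mCherry right ones, varied most. Over the 37 Wnt genes, 0 were higher and 3 lower in the difference (unadjusted p under 0.05, against 2.15% and 2.21% of all transcripts), and the median difference was -0.19, beside -0.01 over all transcripts. The count of lower ones was 5 without embryo 50 or 52, 2 without embryo 60 and 3 or 4 without any other embryo, 1 was higher without embryo 52, and the median stayed between -0.24 and -0.11. Of the 34 Wnt genes not on the study's DNBCAT list, 1 was lower.

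**Figure D2:**
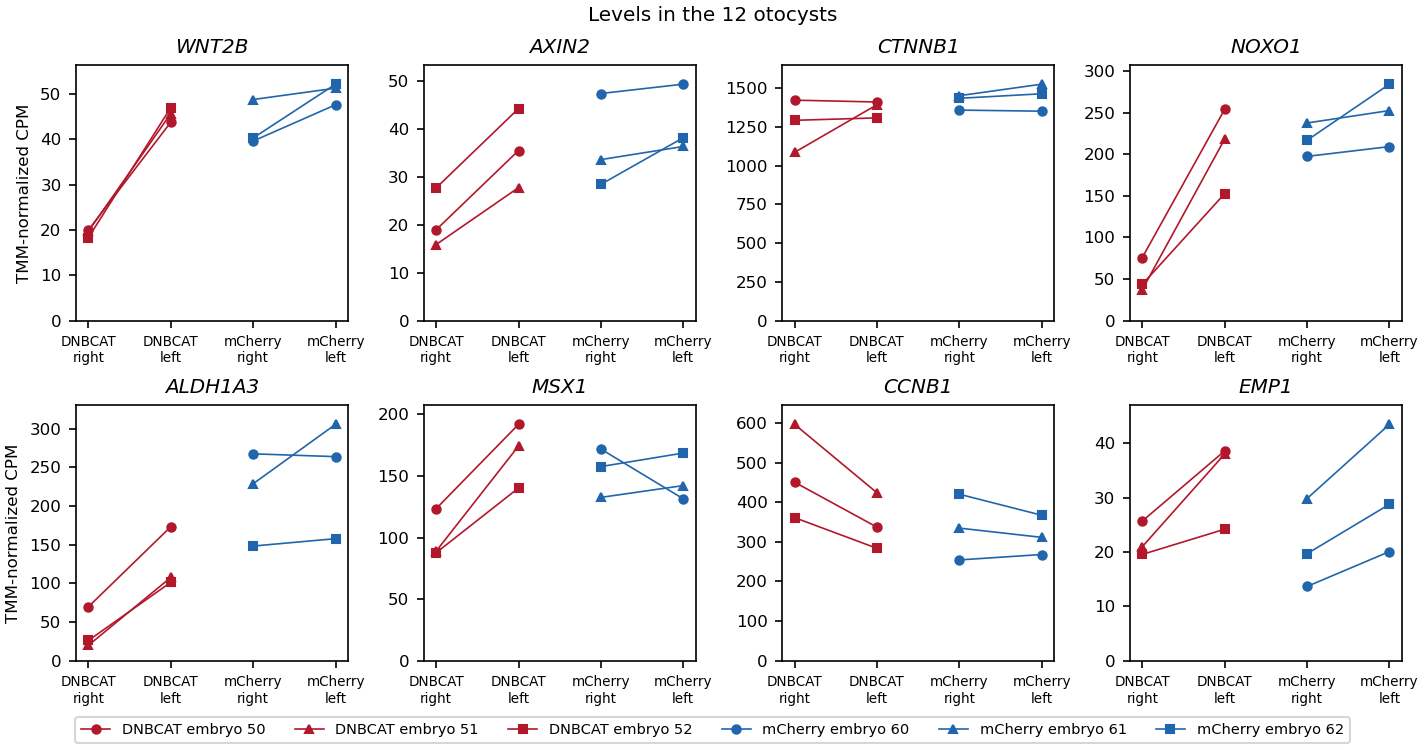
TMM-normalized CPM of 8 genes in the 12 otocysts, with the right and left otocysts of an embryo joined by a line, red for DNBCAT and blue for mCherry. WNT2B, AXIN2, NOXO1, ALDH1A3 and MSX1 are lower in each DNBCAT right otocyst than in its left one, CCNB1 is higher, CTNNB1 is level apart from embryo 51, and EMP1 is lower on the right with both constructs.

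The largest differences among the patterning genes were those of NOXO1 and ALDH1A3. Both genes are on the study's DNBCAT list, so these differences are not independent evidence. NOXO1 organizes an NADPH oxidase and in mice is needed to form otoconia. NOXO1 (ENSGALT00000008938.6) was at 75.9, 37.3 and 43.6 CPM in the DNBCAT right otocysts, against 254, 218 and 153 CPM in the left ones. With mCherry, NOXO1 was at 198, 238 and 217 CPM on the right, against 209, 253 and 284 CPM on the left. The DNBCAT right otocysts were all below all 9 other otocysts. The difference was -1.84 (SE 0.23, 95% interval -2.39 to -1.28, adjusted p = 0.670). DESeq2's Wald test gave NOXO1 an adjusted p of 7.07e-15, on the same libraries that the list was selected on. ALDH1A3 (ENSGALT00000078438.3) was at 69.8, 19.97 and 26.3 CPM in the DNBCAT right otocysts, against 173, 108 and 101 CPM in the left ones. With mCherry, ALDH1A3 was at 268, 229 and 148 CPM on the right, against 264, 306 and 158 CPM on the left. ALDH1A3, an enzyme that makes retinoic acid, was lowest in the DNBCAT right otocysts of embryos 51 and 52, and the mCherry pairs lay closer together. Its difference was -1.71 (SE 0.28, 95% interval -2.39 to -1.02, adjusted p = 0.935). The left otocysts of the DNBCAT embryos also held less ALDH1A3 on average than those of the mCherry embryos (128 against 243 CPM), a gap between embryos that the within-embryo ratio does not use.

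Other patterning genes differed less. DACH1, a transcription factor of the Dachshund family, had effects of -0.53 with DNBCAT and -0.11 with mCherry and a difference of -0.42 (SE 0.15, 95% interval -0.79 to -0.05, adjusted p = 0.935). Without embryo 51, 52, 60 or 61 its unadjusted p was above 0.05 (-0.40, -0.37, -0.28 and -0.42). FGF3, a growth factor that helps to induce the ear, went the other way. FGF3 (ENSGALT00000046197.3) was at 6.93, 6.37 and 7.10 CPM in the DNBCAT right otocysts, against 4.70, 4.81 and 4.63 CPM in the left ones. With mCherry, FGF3 was at 3.89, 6.66 and 4.54 CPM on the right, against 4.47, 7.62 and 7.65 CPM on the left. It was higher on the right in all 3 DNBCAT embryos and lower on the right in all 3 mCherry embryos, at low levels throughout, with a difference of 0.91 (SE 0.30, 95% interval 0.19 to 1.63, adjusted p = 0.935). Without embryo 50, 52 or 62 its unadjusted p was above 0.05 (0.89, 0.86 and 0.73). OTOP1, a proton channel needed for otoconia in mice, had effects of -0.57 with DNBCAT and -0.31 with mCherry and overlapping groups, and MEIS1, SOX9 and FGF9 were also lower in the mean of both effects, with no difference between constructs at an unadjusted p under 0.05. Of the 18 patterning transcripts, 1 was higher and 3 lower in the difference, against 2.15% and 2.21% of all transcripts, and 5 were lower without embryo 50. With 3 on the study's DNBCAT list (NOXO1, ALDH1A3 and DACH1), the 15 others gave only FGF3.

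MSX1, MSX2 and BAMBI, genes linked to BMP signalling, were lower in the difference. MSX1 (ENSGALT00000024209.4) was at 123, 88.97 and 87.7 CPM in the DNBCAT right otocysts, against 192, 174 and 140.2 CPM in the left ones. With mCherry, MSX1 was at 172, 133 and 158 CPM on the right, against 131, 142 and 169 CPM on the left. MSX1, a homeobox gene that responds to BMP and Wnt signals, was lower in each DNBCAT right otocyst than in any left one of those embryos, while with mCherry it was higher on the right in embryo 60 and slightly lower in embryos 61 and 62. Its difference was -0.82 (SE 0.17, 95% interval -1.22 to -0.42, adjusted p = 0.935). MSX2, its close relative, had log2 ratios of -0.73, -0.74 and -0.64 with DNBCAT, against 0.06, -0.33 and -0.27 with mCherry, and BAMBI, a decoy receptor that dampens BMP signalling, had -0.46, -0.79 and -0.73, against 0.04, -0.27 and -0.37. These groups did not overlap, and the differences were -0.53 (SE 0.13, 95% interval -0.84 to -0.21, adjusted p = 0.935) for MSX2 and -0.46 (SE 0.14, 95% interval -0.81 to -0.11, adjusted p = 0.935) for BAMBI, which had an unadjusted p above 0.05 without embryo 51, 52 or 60 (-0.40, -0.42 and -0.34). All of these are on the study's DNBCAT list, and the 7 other BMP genes measured gave 0 differences. ID1, a direct BMP target, was higher on the right in all 6 embryos, by 0.16 with DNBCAT and 0.13 with mCherry, and its difference was 0.04 (95% interval -0.14 to 0.21). On the TPM scale the mean effect of ID1 was -0.02, where the median of all transcripts was -0.13.

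Some neuronal genes on the study's DNBCAT list were lower in the difference, and those off the list gave no call. Of 34 transcripts of 30 genes of neuronal differentiation and guidance, 0 were higher and 11 lower in the difference at an unadjusted p under 0.05 (2.15% and 2.21% of all transcripts were), and the median effects were -0.55 with DNBCAT and -0.12 with mCherry. All 11 are among the 15 that the study's DNBCAT list holds, and the other 19 gave 0 in either direction, with a median difference of -0.12. Leaving out 1 embryo at a time gave 8 to 14 lower. The 34 transcripts summed to 3505 to 4052 CPM in the DNBCAT right otocysts, against 4192 to 4485 CPM in the left ones, and to 3949 to 4218 CPM in the mCherry right otocysts, against 4201 to 4374 CPM in the left ones. HTR1E (ENSGALT00000025516.5) was at 10.2, 5.27 and 8.69 CPM in the DNBCAT right otocysts, against 31.9, 21.3 and 31.9 CPM in the left ones. With mCherry, HTR1E was at 33.6, 26.2 and 18.4 CPM on the right, against 34.5, 31.4 and 27.1 CPM on the left. HTR1E, a serotonin receptor, was lower in each DNBCAT right otocyst than in any of the 9 other otocysts. Its difference was -1.55 (SE 0.19, 95% interval -2.01 to -1.09, adjusted p = 0.670). ASTN2 (ENSGALT00000011395.5) was at 10.8, 4.84 and 13.9 CPM in the DNBCAT right otocysts, against 24.7, 12.6 and 34.1 CPM in the left ones. With mCherry, ASTN2 was at 28.4, 26.6 and 19.6 CPM on the right, against 28.1, 27.96 and 24.1 CPM on the left. ASTN2, an astrotactin known from the migration of neurons, was lower on the right in each DNBCAT embryo, and embryo 51 was low on both sides. The mCherry pairs differed little, and the difference was -1.17 (SE 0.15, 95% interval -1.54 to -0.80, adjusted p = 0.677).

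RET, the receptor tyrosine kinase for GDNF-family ligands, was lower on the right with DNBCAT, and its mCherry pairs went both ways. RET (ENSGALT00000084496.2) was at 35.1, 26.9 and 29.8 CPM in the DNBCAT right otocysts, against 80.5, 79.5 and 60.8 CPM in the left ones. With mCherry, RET was at 121, 80.5 and 66.8 CPM on the right, against 88.8, 78.7 and 87.2 CPM on the left. With DNBCAT it was lower on the right in each embryo by a similar factor, while with mCherry the log2 ratios were 0.45, 0.03 and -0.38, so that the control pairs spread around 0. The difference was -1.29 (SE 0.24, 95% interval -1.88 to -0.71, adjusted p = 0.935). PLPPR4 (ENSGALT00000045311.3), a membrane protein of neurons, was estimated at 0 counts in the right otocysts of embryos 50, 51 and 52, against 27 to 47 counts in their left ones, which with a limit of 3 counts makes the right side at least 11.1-fold lower. With mCherry it was at 2.98, 1.998 and 2.21 CPM on the right, against 3.65, 4.03 and 1.90 CPM on the left. CRMP1, a protein of growing axons, and SLC1A7, a glutamate transporter, had differences of -0.79 (95% interval -1.18 to -0.39) and -1.21 (95% interval -1.86 to -0.55). KCND2, SLITRK6, SLIT1, AMIGO3 and CADM2 were also lower (-0.81, -0.91, -0.84, -0.45 and -0.93 in that order), AMIGO3 not without embryo 50, 51, 61 or 62 (-0.37, -0.43, -0.36 and -0.47). NEUROD1, a transcription factor of otic neuroblasts, had effects of -0.48 with DNBCAT and -0.25 with mCherry and overlapping groups, with a difference of -0.23 (95% interval -0.60 to 0.15).

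Genes of mitosis that the study's DNBCAT list holds were higher in the difference, and those off the list gave no call. Of 9 measured, 6 were higher and 0 lower, against 2.15% and 2.21% of all transcripts, and all 9 had a positive one, with median effects of 0.34 with DNBCAT and 0.02 with mCherry. The 6 are all the members on that list, which was selected on the same DNBCAT libraries, so nothing is read from their count, and the other 3, CKS2, KIF15 and NCAPG, gave 0 calls. CCNB1 (ENSGALT00000006616.7) was at 450.4, 596 and 361 CPM in the DNBCAT right otocysts, against 337, 424 and 284 CPM in the left ones. With mCherry, CCNB1 was at 254, 335 and 420.1 CPM on the right, against 268, 311 and 367 CPM on the left. CCNB1, the cyclin that drives entry into mitosis, was higher on the right in each DNBCAT embryo. With mCherry it was higher on the right in embryos 61 and 62 and lower in embryo 60. Its difference was 0.34 (SE 0.09, 95% interval 0.12 to 0.57, adjusted p = 0.935). AURKA (ENSGALT00000033524.5) was at 354, 419.7 and 303 CPM in the DNBCAT right otocysts, against 301, 318 and 232 CPM in the left ones. With mCherry, AURKA was at 235, 279 and 303 CPM on the right, against 246, 278 and 280.3 CPM on the left. AURKA, a spindle kinase, and CDC20, an activator of the anaphase-promoting complex, had differences of 0.32 (SE 0.08, 95% interval 0.12 to 0.52, adjusted p = 0.935) and 0.32 (SE 0.09, 95% interval 0.11 to 0.53, adjusted p = 0.935). CENPH, a kinetochore protein, PBK, a mitotic kinase, and CDK1, the partner of CCNB1, had differences of 0.35, 0.28 and 0.42.

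The mitosis values moved with the scale. On counts, leaving out 1 embryo at a time gave 5 to 8 of the 9 higher, with median differences of 0.27 (without embryo 60) to 0.40 (without embryo 62). On the TPM scale, 0 of the 9 passed and the median was 0.07 (8 of 9 positive), while on that scale without embryo 51, an alternative chosen after seeing the data, 6 were higher and the median was 0.27. Genes of DNA replication, measured in 16, gave 1 higher call, against 2.15% of all transcripts: ORC1 (0.30), a subunit of the origin recognition complex. There were 6 higher without embryo 52, 2 without embryo 62 and 0 without embryo 60. Their median difference of 0.11 turned to -0.14 on the TPM scale, where the median of all transcripts was -0.19. CDKN1A, the cell cycle inhibitor p21, was higher too. CDKN1A (ENSGALT00000044994.3) was at 4.04, 3.14 and 3.18 CPM in the DNBCAT right otocysts, against 0.522, 0.621 and 0.457 CPM in the left ones. With mCherry, CDKN1A was at 0.518, 0.866 and 1.01 CPM on the right, against 0.275, 0.503 and 0.720 CPM on the left. It was scarce in all otocysts, with the 3 DNBCAT right ones above all others, and the difference was 1.97 (SE 0.57, 95% interval 0.60 to 3.34, adjusted p = 0.935). CDKN1A is on the study's DNBCAT list, so this difference is not independent evidence. BTG2, an antiproliferative gene that is also on that list, was lower (-0.52), as was CYR61 (-0.48), and the kinase PIM1 was higher (0.38). Of the 17 immediate early and stress transcripts, to which these and CDKN1A belong, 2 were higher and 2 lower, against 2.15% and 2.21% of all transcripts. The 14 not on the study's DNBCAT list gave 1 higher and 1 lower. Only 1 was higher without embryo 50, 51, 52, 61 or 62, and only 1 was lower without embryo 50, 51, 60 or 62.

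Some chaperone and ribosome assembly genes were higher in the difference as well, among them HSPD1, PPID, NOP58 and UTP15, which are on the study's DNBCAT list. HSPD1, the mitochondrial chaperonin, was at 1262, 1638 and 1139 CPM in the DNBCAT right otocysts, against 1014, 1093 and 904 CPM in the left ones, and with mCherry at 832, 1036 and 1171 CPM on the right, against 816, 912 and 1067 CPM on the left. It was higher on the right in all 6 embryos, more so with DNBCAT, and the difference was 0.30 (SE 0.10, 95% interval 0.05 to 0.54, adjusted p = 0.935), with an unadjusted p above 0.05 without embryo 60 or 62 (0.25 and 0.31). Of 7 chaperones outside the endoplasmic reticulum, 4 were higher in the difference (HSPD1, HSPA8, PPID and BAG3), against 2.15% of all transcripts. This count was 0 without embryo 60 or 62, 1 without embryo 50 or 61 and 2 without embryo 51. Of the 4 chaperones not on the study's DNBCAT list, 2 were higher in the difference. On the TPM scale 0 of the 7 were, and their median of 0.20 turned to -0.04, where the median of all transcripts was -0.19. NOP58 (0.29) and UTP15 (0.24), parts of the machinery that processes ribosomal RNA, were the 2 of 8 ribosome biogenesis genes higher in the difference, with 0 of 8 higher without embryo 51, 60 or 61 and 1 without embryo 62. The 4 ribosome biogenesis genes not on the study's DNBCAT list gave 0 calls. The differences of all 14 ribosomal protein transcripts were positive with a median of 0.21, but 0 passed, and without embryo 51, whose median log2 ratio for them was 0.81, 3 of 14 were positive with a median of -0.03. In the endoplasmic reticulum list, CRELD2 (0.20) and CANX (0.18) were the 2 of 15 higher, with 0 higher without embryo 50, 60, 61 or 62 and 1 without embryo 52, and both turned negative on the TPM scale (-0.05 and -0.07).

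The named transcript with the smallest p among those higher was NUAK1, an AMPK-related kinase. NUAK1 (ENSGALT00000020668.5) was at 142, 108 and 188 CPM in the DNBCAT right otocysts, against 103, 85.8 and 131 CPM in the left ones. With mCherry, NUAK1 was at 118, 123 and 121 CPM on the right, against 123, 124 and 113 CPM on the left. It was higher on the right in each DNBCAT embryo, and the mCherry pairs differed little. The difference was 0.42 (SE 0.08, 95% interval 0.22 to 0.63, adjusted p = 0.935). CHCHD4, which imports proteins into the mitochondrial intermembrane space, had a difference of 0.41 (SE 0.08, 95% interval 0.20 to 0.61, adjusted p = 0.935). ADK, adenosine kinase, was higher on the right in all 6 embryos (0.39 with DNBCAT and 0.10 with mCherry), with a difference of 0.30 (SE 0.07, 95% interval 0.13 to 0.46, adjusted p = 0.935). CTH, which makes cysteine from cystathionine and is not on the study's DNBCAT list, had a difference of 0.23. On the TPM scale the CTH difference was -0.01, where the median of all transcripts was -0.19. On the lower side, EXOC4, a subunit of the exocyst that tethers vesicles, was at -0.61, and HBP1, a transcriptional repressor, at -0.63. NUAK1, CHCHD4, ADK, EXOC4 and HBP1 are all on the study's DNBCAT list.

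**Figure D3:**
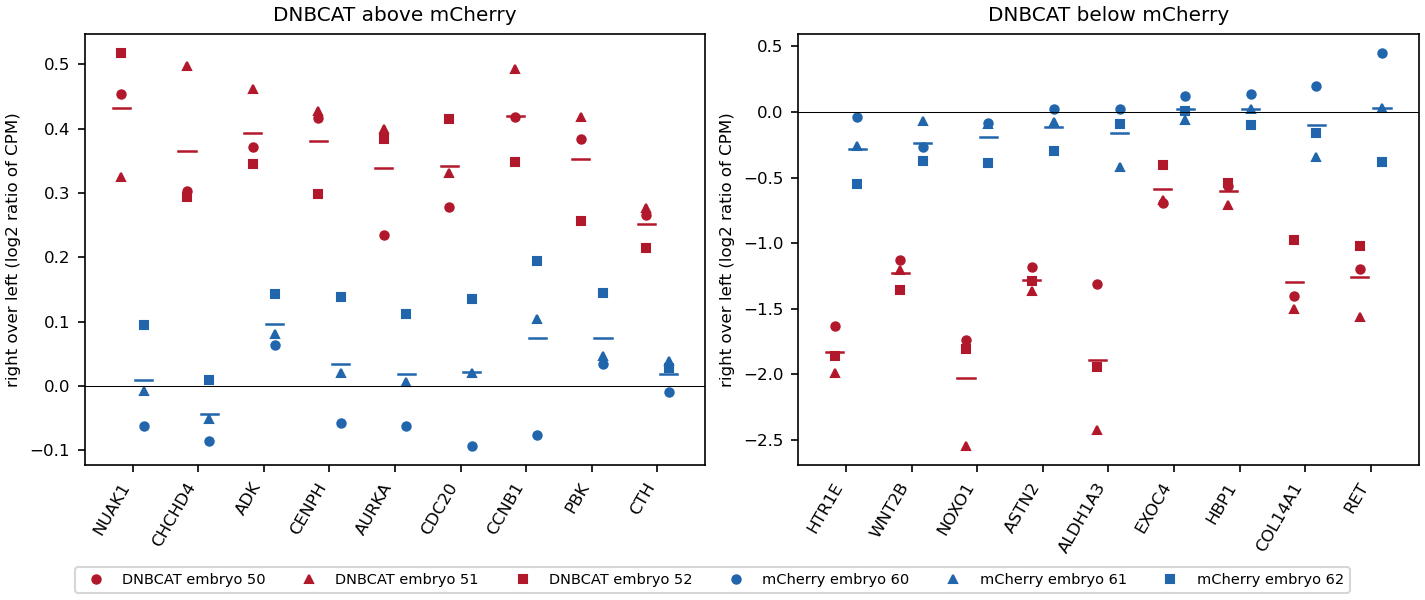
Right-over-left log2 ratios of CPM in each embryo for named transcripts from those with the smallest p in the difference whose groups do not overlap, 9 higher (left panel) and 9 lower (right panel) with DNBCAT; short lines are means of 3 embryos. PLPPR4, at 0 in the DNBCAT right otocysts, is not drawn; in both panels most mCherry points lie near 0.

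Some epithelial genes were lower in the difference, among them KRT7 and S100A11, which are on the study's DNBCAT list. KRT7 (ENSGALT00000070141.2) was at 99.4, 39.9 and 51.3 CPM in the DNBCAT right otocysts, against 164, 82.8 and 96.2 CPM in the left ones. With mCherry, KRT7 was at 56.4, 93.9 and 69.7 CPM on the right, against 75.8, 93.9 and 99.4 CPM on the left. KRT7, a keratin of simple epithelia, lay lower on the right side of each embryo, by a negligible amount in embryo 61, and its difference was -0.58 (SE 0.16, 95% interval -0.97 to -0.18, adjusted p = 0.935). ANXA2 (ENSGALT00000005981.5) was at 20.9, 6.97 and 3.58 CPM in the DNBCAT right otocysts, against 67.9, 27.01 and 21.1 CPM in the left ones. With mCherry, ANXA2 was at 19.5, 8.26 and 7.32 CPM on the right, against 16.5, 22.8 and 10.99 CPM on the left. ANXA2, a membrane-binding annexin, was lower on the right in every DNBCAT embryo, while the mCherry pairs went both ways, and the difference was -1.45 (SE 0.47, 95% interval -2.59 to -0.32, adjusted p = 0.935). Without embryo 52 or 62 its unadjusted p was above 0.05 (-1.23 and -1.44). S100A11, a calcium-binding protein, and CDH1, the epithelial cadherin, had differences of -0.50 (95% interval -0.88 to -0.11) and -0.60 (95% interval -1.10 to -0.09). Without embryo 60 (-0.48 for S100A11 and -0.52 for CDH1) neither kept an unadjusted p under 0.05, nor did S100A11 without embryo 61 (-0.45) or CDH1 without embryo 62 (-0.62). KRT24 was higher (0.35 (95% interval 0.10 to 0.61)). Of 10 epithelial genes, 1 was higher and 4 lower, against 2.15% and 2.21% of all transcripts. Without embryo 60 the counts were 0 higher and 2 lower, without embryo 50 they were 0 and 4, and without any other embryo 1 higher and 3 or 4 lower. The 7 epithelial genes not on the study's DNBCAT list gave 1 higher and 2 lower. Their median difference was 0.015, beside -0.27 for all 10. In the glycolysis and hypoxia list, CA12, a carbonic anhydrase, was the 1 of 12 lower in the difference (-0.79 (95% interval -1.49 to -0.10)). The list had 0 of 12 lower without embryo 51 or 60, 3 without embryo 52 and 2 without embryo 62. P4HA1, DDIT4 and SLC16A3 were lower in the mean of both effects (-0.41, -0.46 and -0.72), with differences whose intervals held 0. P4HA1 and SLC16A3 are on the study's DNBCAT list, so their means are not read as shared responses. Over the 12 glycolysis and hypoxia transcripts, the median effects were -0.45 with DNBCAT and -0.10 with mCherry.

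Differences were also read in the 721 names not on the study's DNBCAT list, which the study named for other experiments, as Wnt components or as mesenchymal markers. As given above, 5.69% of them had an unadjusted p under 0.05, against 4.36% of all transcripts. Their groups did not overlap in 12.1%, against 12% of all, so as a set they lay near the background. The genes of this paragraph that belong to no list were chosen after their values were seen, from the 10 smallest p in each direction among those whose groups did not overlap. Higher with DNBCAT were CTH (0.23), ORC1 (0.30), DCTD (0.24), KRT24 (0.35), LIN28A (0.41), ORAOV1 (0.33), FGF3 (0.91), XPO1 (0.24), WDR77 (0.21) and CTSZ (0.24). LIN28A, an RNA-binding protein of early embryonic cells, was at 107, 94.7 and 133 CPM in the DNBCAT right otocysts, against 86.3, 76.9 and 99.7 CPM in the left ones, and with mCherry at 70.3, 83.6 and 72.7 CPM on the right, against 84.4, 73.1 and 79.8 CPM on the left. All 3 DNBCAT pairs were higher on the right, and 1 of the 3 mCherry pairs was, and the unadjusted p was above 0.05 without embryo 52, 60 or 62 (0.38, 0.32 and 0.39). CTH, DCTD, XPO1, WDR77 and CTSZ lay at or just below 0 on the TPM scale (-0.01 to -0.04), where the median of all transcripts was -0.19. Lower with DNBCAT were MAVS (-0.61), EHHADH (-0.66), SPTSSB (-0.90), MFSD13A (-0.32), EPHX2 (-0.48), ANXA2 (-1.45), GDPD4 (-0.79), BRD1 (-0.31) and COL9A3 (-1.03). MAVS, an adaptor of antiviral signalling, was at 22.3, 13.5 and 30.9 CPM in the DNBCAT right otocysts, against 36.1, 19.9 and 37.96 CPM in the left ones, and with mCherry at 43.5, 28.7 and 26.8 CPM on the right, against 35.4, 27.7 and 28.00 CPM on the left. It was lower on the right in each DNBCAT embryo and mixed with mCherry, with an unadjusted p above 0.05 without embryo 51 (-0.56). EHHADH, an enzyme of peroxisomal fatty acid oxidation, and COL9A3, a collagen of cartilage and the inner ear, were among the lower ones.

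Shared responses were counted where the right-over-left effect had an unadjusted p under 0.05 with each construct in the same direction. Since the right otocyst was always the electroporated one, such a response cannot be told apart from a difference between right and left ears. Of all transcripts, 91 met this (0.472%), 41 higher and 50 lower, which is 3.69% of the 2463 unadjusted DNBCAT calls and 22.4% of the 406 mCherry calls. In the mean of both effects, 1988 transcripts (10.3%) had an unadjusted p under 0.05, 1054 higher (5.46%) and 934 lower (4.84%), or 174 and 1517 on the TPM scale, and 0 an adjusted one by edgeR (smallest adjusted p 0.149, 565 by DESeq2's Wald test). The count was 3134 without embryo 52, 1214 without embryo 61 and 1119 without embryo 62. A large DNBCAT effect alone can carry this mean, as for NOXO1 (-2.02 with DNBCAT and -0.19 with mCherry). Among the names, 20 had an unadjusted p under 0.05 with each construct, 19 lower and 1 higher. Chosen after values were seen, they comprised 7 on the study's DNBCAT list and 13 others. Of the 721 names not on that list, 22 were higher and 59 lower on the right in every embryo (11.2% together), against 3.67%, 3.44% and 7.11% of all transcripts.

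EMP1, an epithelial membrane protein, had effects of similar size with both constructs. EMP1 (ENSGALT00000030620.5) was at 25.7, 20.99 and 19.6 CPM in the DNBCAT right otocysts, against 38.6, 38.03 and 24.2 CPM in the left ones. With mCherry, EMP1 was at 13.7, 29.8 and 19.7 CPM on the right, against 20.1, 43.5 and 28.8 CPM on the left. Its right otocyst lay below the left one in every embryo, and the 3 mCherry log2 ratios fell within the range of the 3 DNBCAT ones. The effects were -0.58 with DNBCAT and -0.55 with mCherry, the mean of both was -0.57 (SE 0.08, 95% interval -0.77 to -0.36, adjusted p = 0.406), and the difference was -0.04 (95% interval -0.44 to 0.37). GJB6 (ENSGALT00000103505.1) was at 61.3, 46.9 and 40.3 CPM in the DNBCAT right otocysts, against 68.2, 69.8 and 51.7 CPM in the left ones. With mCherry, GJB6 was at 59.6, 59.9 and 52.9 CPM on the right, against 67.4, 85.3 and 72.4 CPM on the left. GJB6, the gap junction protein connexin 30, had the same direction in every embryo, with effects of -0.36 with DNBCAT and -0.38 with mCherry and a difference of 0.02 (95% interval -0.33 to 0.37). PENK, the enkephalin precursor (-0.46 with DNBCAT and -0.52 with mCherry), ANGPT1, a ligand for the TIE-family receptor (-0.77 with DNBCAT and -0.90 with mCherry), EMB, a cell adhesion protein (-0.36 with DNBCAT and -0.24 with mCherry), GYG1, the primer of glycogen synthesis (-0.25 with DNBCAT and -0.20 with mCherry), and 1 transcript of TBL1XR1, a corepressor subunit that also binds β-catenin (-0.18 with DNBCAT and -0.15 with mCherry), had differences of 0.06, 0.13, -0.12, -0.05 and -0.03 in that order. The interval for ANGPT1, -0.95 to 1.21, was the widest of these.

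Several genes were lower on the right with both constructs, but with a larger effect of DNBCAT. ZNF804A (ENSGALT00000040147.5) was at 30.1, 16.3 and 28.3 CPM in the DNBCAT right otocysts, against 44.3, 27.3 and 44.4 CPM in the left ones. With mCherry, ZNF804A was at 40.6, 52.6 and 37.6 CPM on the right, against 52.3, 61.4 and 48.2 CPM on the left. ZNF804A, a zinc finger protein, lay lower on the right side of every embryo, with groups that did not overlap. The effects were -0.65 with DNBCAT and -0.32 with mCherry, the mean was -0.48 (SE 0.05, 95% interval -0.61 to -0.36, adjusted p = 0.236), and the difference was -0.33 (95% interval -0.58 to -0.09). SLC12A2, the sodium-potassium-chloride cotransporter (-0.57 with DNBCAT and -0.21 with mCherry), and the chemokine CXCL14 (-1.84 with DNBCAT and -0.80 with mCherry) were also lower with both, and the 2 CXCL14 groups overlapped. ZNF804A, SLC12A2 and CXCL14 are on the study's DNBCAT list, so nothing is read from their larger DNBCAT effect. DISP1, which releases Hedgehog ligands, ADAMTS3, a procollagen protease, CYTL1, a small secreted protein, and GDPD5, a glycerophosphodiesterase, were lower in all 6 embryos, with mean effects of -0.53, -0.54, -0.58 and -0.27 in that order. Of these, only GDPD5 had an unadjusted p under 0.05 with each construct (-0.36 with DNBCAT and -0.19 with mCherry). DISP1, ADAMTS3 and CYTL1 are on the study's DNBCAT list, so their means are not read as shared responses. On the higher side of all 6 embryos, NPM3, a histone chaperone of the nucleolus, led by size after CDKN1A. NPM3 (ENSGALT00000063023.2) was at 188, 318 and 179.5 CPM in the DNBCAT right otocysts, against 126, 144 and 118 CPM in the left ones. With mCherry, NPM3 was at 112, 156 and 206 CPM on the right, against 109.6, 116 and 148 CPM on the left. Its effects were 0.77 with DNBCAT and 0.31 with mCherry, embryo 51 had the largest log2 ratio (1.14) and embryo 60 the smallest (0.03), and the difference was 0.46 (95% interval -0.01 to 0.93). WDR77, a partner of the arginine methyltransferase PRMT5, GRSF1, which binds mitochondrial RNA, PPAT, an enzyme of purine synthesis, HIGD1C and ZFAND2A had mean effects of 0.20, 0.26, 0.24, 0.28 and 0.41 in that order, each higher in all 6. Neither NPM3 nor any of these had an unadjusted p under 0.05 with each construct, and all but WDR77 are on the study's DNBCAT list.

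**Figure D4:**
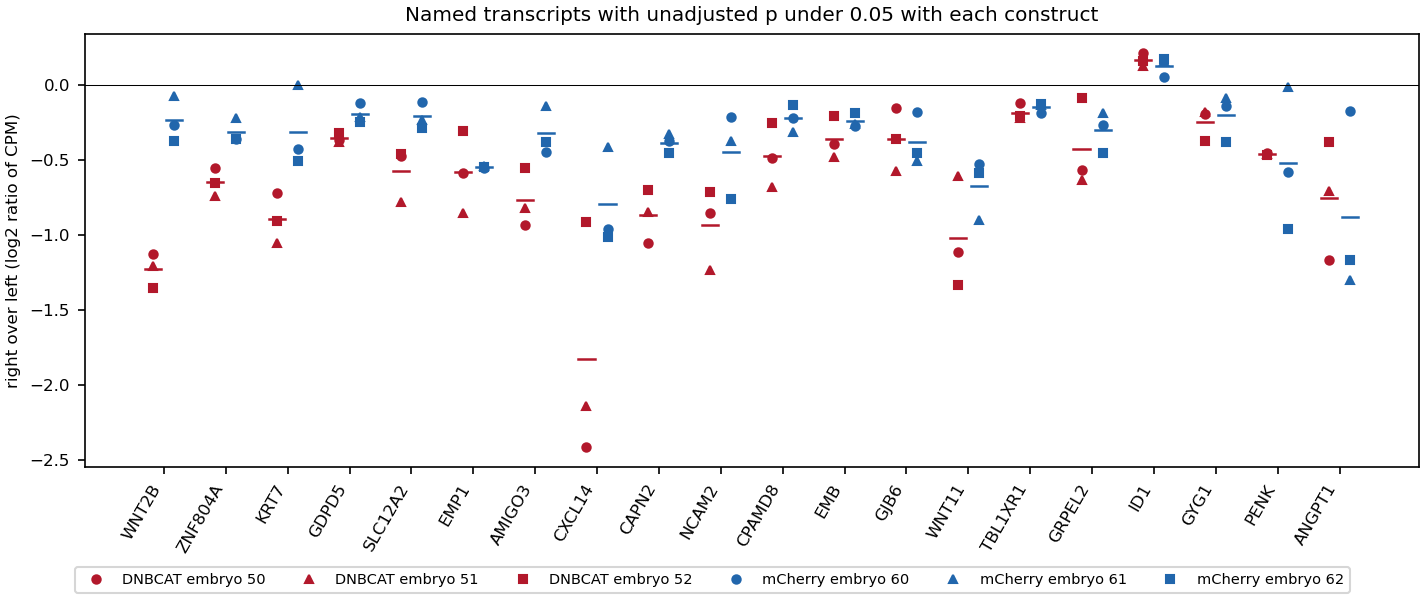
Right-over-left log2 ratios of CPM in each embryo for the 20 named transcripts with an unadjusted p under 0.05 with each construct; red is DNBCAT, blue is mCherry, short lines are means of 3 embryos. All but ID1 are lower on the right. EMP1, GJB6 and PENK have similar means with both constructs. WNT2B, KRT7 and CXCL14, all on the study's DNBCAT list, lie lower with DNBCAT.

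Differences with the larger effect on the mCherry side made up 142 of the 842 over all transcripts (16.9%). Among the 113 names with an unadjusted p under 0.05 in the difference, 72 of which are on the study's DNBCAT list, the mCherry effect was the larger in size only in FGFR4, a fibroblast growth factor receptor. FGFR4 (ENSGALT00000025332.6) was at 14.7, 11.8 and 18.7 CPM in the DNBCAT right otocysts, against 12.6, 11.9 and 24.6 CPM in the left ones. With mCherry, FGFR4 was at 14.7, 20.6 and 19.7 CPM on the right, against 12.04, 10.8 and 12.6 CPM on the left. FGFR4 was higher on the right in all 3 mCherry embryos, while the DNBCAT embryos were split (log2 ratios of 0.22, -0.01 and -0.39), with effects of -0.06 with DNBCAT and 0.62 with mCherry and a difference of -0.69 (SE 0.26, 95% interval -1.31 to -0.07, adjusted p = 0.935). NDST1, an enzyme that sulfates heparan chains, had effects of opposite sign (-1.05 with DNBCAT and 0.58 with mCherry) and a difference of -1.63 (SE 0.34, 95% interval -2.45 to -0.81, adjusted p = 0.935), and it is on the study's DNBCAT list. FGFR4 and NDST1 were chosen after their values were seen. Over all transcripts, 10 (0.0518%) had an unadjusted p under 0.05 with each construct in opposite directions, and 0 of them are named. The sign was the same in all embryos of a construct and opposite between the constructs in 2.39% of all transcripts, FGF3 among them.

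Between embryos, responses resembled each other little over the transcriptome. Across all 19298 transcripts, the log2 ratios of 2 embryos with the same construct correlated with a median r of 0.00734 (6 pairs) and those of embryos with different constructs with 0.0182 (9 pairs). Among the 14037 transcripts with at least 10 counts in every library, these were 0.0581 and 0.0742, with the highest value, 0.222, between embryos 50 and 51. The DNBCAT and mCherry effects correlated with r = 0.0188 across all 19298 transcripts, 0.2001 across the 14037 and 0.283 across the 812 names. Transcripts of a pair of embryos share their 4 libraries and are not independent, so these values are descriptions.

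**Figure D5:**
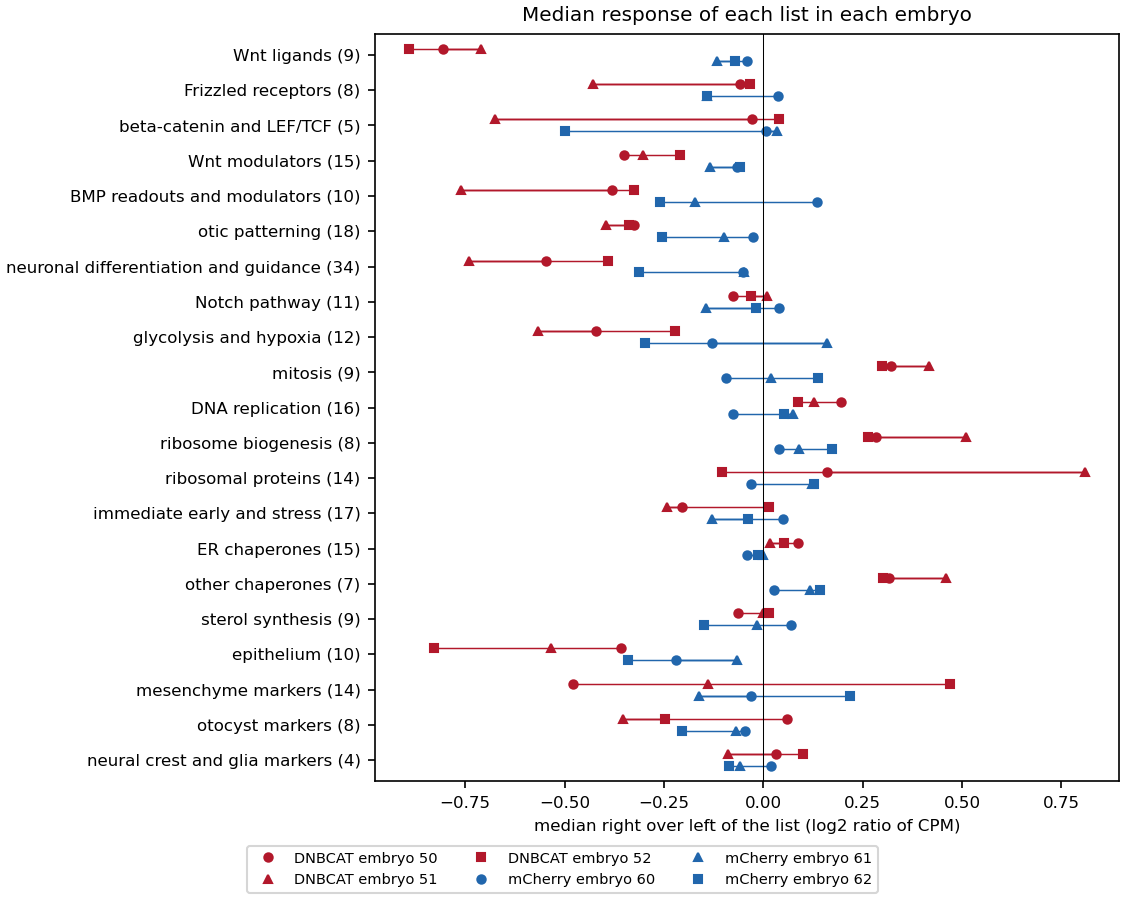
Median right-over-left log2 ratio of each gene list in each embryo, with the number of tested transcripts in brackets; red is DNBCAT, blue is mCherry. Wnt ligands, the neuronal list and mitosis are among the lists whose 3 DNBCAT medians lie on 1 side of all 3 mCherry medians, and mesenchyme markers and ribosomal proteins spread widely between the DNBCAT embryos. Without members of the study's DNBCAT list, the neuronal medians overlapped (-0.34, -0.35 and -0.15 with DNBCAT, against -0.06, -0.03 and -0.21 with mCherry). The 3 mitosis genes left then were barely apart (lowest DNBCAT median 0.0586, highest mCherry median 0.0584).

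Markers of other tissues were read beside these groups. Mesenchyme markers (14 transcripts) summed to 878 to 1392 CPM in the DNBCAT right otocysts, against 798 to 1199 CPM in the left ones, and to 933 to 1094 CPM in the mCherry right otocysts, against 859 to 1011 CPM in the left ones. Their median log2 ratios were -0.48, -0.14 and 0.47 in embryos 50, 51 and 52, against -0.03, -0.16 and 0.22 in embryos 60, 61 and 62, so the DNBCAT embryos did not move together. Of the 14, 1 was lower in the difference, against 2.21% of all transcripts: COL14A1, a collagen of fibrous tissue. COL14A1 is on the study's DNBCAT list, and the 13 markers not on it gave 0 calls. COL14A1 (ENSGALT00000077257.3) was at 18.4, 4.16 and 14.9 CPM in the DNBCAT right otocysts, against 48.9, 11.95 and 29.4 CPM in the left ones. With mCherry, COL14A1 was at 33.9, 24.04 and 15.8 CPM on the right, against 29.5, 30.5 and 17.6 CPM on the left. It was lower on the right in each DNBCAT embryo, and its difference was -1.19 (SE 0.22, 95% interval -1.72 to -0.66, adjusted p = 0.935). Otocyst markers (DLX5, LMX1A, TBX2, SOX10 and others, 8 in all) summed to 819 to 1374 CPM in the DNBCAT right otocysts, against 1119 to 1370.0 CPM in the left ones, and to 1215 to 1406 CPM in the mCherry right otocysts, against 1360.4 to 1410 CPM in the left ones. Of them, 1 of the 8 was lower in the difference (CDH1), against 2.21% of all transcripts, and 0 without embryo 60 or 62. Neural crest and glia markers gave 0 of 4, Notch pathway genes 0 of 11 and sterol synthesis genes 0 of 9 in either direction. The part of tissue composition in the differences above was not tested.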

How the data were processed

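RNA of 12 single otocysts was sequenced as paired reads after SMART-Seq v4 amplification and Nextera XT library preparation. The authors quantified each library with kallisto, for which the submitters' processing notes name bcl2fastq and the build GRCg6a without versions, and deposited estimated counts and TPM for 28756 transcripts per otocyst; the deposited transcript lengths were not tested. Estimated counts, 13157404 to 16097100 per otocyst, were rounded to whole numbers. Transcripts with at least 5 counts in at least 47% of libraries were kept. Counts were normalized by TMM and fitted in edgeR 4.0.16 (R 4.3.3) with the quasi-likelihood test, embryo as block and 1 right-over-left effect per construct. Their difference and mean were tested with Benjamini-Hochberg adjustment over all 19298 transcripts.

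Left and right otocysts came from the same embryo, which is the pairing: their deviations from the group means correlated with r of 0.0872 to 0.319 (6 pairs), against -0.238 to 0.0281 between embryos. Log2 ratios of single embryos used a pseudocount of 0.1 CPM. Gene names came mainly from transcript identifiers in the study's lists of regulated transcripts, whose fold changes and p-values were not used. The 27 Wnt columns of the study's expression values were each matched to 1 transcript by their TPM in these libraries. Identifiers of ENG, NT5E and THY1 came from the study's mesenchymal markers. Of the 805 symbols, 778 were found in the RefSeq gene table. The rule for named genes took the 10 smallest p in each direction for the difference among transcripts whose construct groups did not overlap, the 10 smallest in each direction for the mean among those of 1 sign in all 6 embryos, every Wnt gene of the lists, and up to 4 members of each other list by p in the difference or the mean. Some genes that this rule or the added selections took are not reported here. Members and lists were chosen with earlier results of these data known. Alternatives were DESeq2 1.42.0 (Wald test), DESeq2 size factors, a filter of at least 10 counts in every library, no filter, limma 3.58.1 with voom and on log2(TPM + 1) and log2(TPM + 0.1), no embryo block, and leaving out each embryo. Log2(TPM + 1) without embryo 51 was chosen after seeing the data. No molecular identifiers were used, so limits from counts cover counting error only. Tables and plots were made with Python 3.11.15, pandas 2.3.3 and matplotlib 3.10.9.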

Additional observations from a re-analysis of the deposited data

Results flagged for a closer look

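Flagged here are 6 named transcripts outside the study's DNBCAT list. In each, all 3 DNBCAT embryos moved one way between right and left and all 3 mCherry embryos the other way. These 6 are not a count of all names with this pattern. Of all transcripts, 462 (2.39%) had this pattern, and no difference passed adjustment in edgeR's fit (adjusted p = 0.935 for each of the 6). FGF3 had a difference of 0.91, with log2 ratios of 0.55, 0.40 and 0.61 in embryos 50, 51 and 52, against -0.20, -0.19 and -0.74 in embryos 60, 61 and 62. EPHX2, an epoxide hydrolase, had a difference of -0.48, with log2 ratios of -0.21, -0.26 and -0.42 with DNBCAT, against 0.15, 0.32 and 0.08 with mCherry. MFSD13A, a member of the major facilitator family, had a difference of -0.32, with ratios of -0.15, -0.25 and -0.16 with DNBCAT, against 0.11, 0.05 and 0.23 with mCherry. GDPD4, a glycerophosphodiesterase, had a difference of -0.79, with ratios of -0.21, -0.70 and -0.42 with DNBCAT, against 0.79, 0.14 and 0.12 with mCherry.

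SCX, a transcription factor of tendon progenitors, had a difference of -0.93 (95% interval -2.01 to 0.15). It was at 2.29, 1.70 and 1.86 CPM in the DNBCAT right otocysts, against 3.53, 2.72 and 2.80 CPM in the left ones, and with mCherry at 2.27, 1.80 and 1.77 CPM on the right, against 2.06, 1.078 and 1.70 CPM on the left. CANX, the chaperone calnexin, had a difference of 0.18, with ratios of 0.07, 0.14 and 0.17 with DNBCAT, and mCherry ratios that all lay within 0.13 of 0, embryo 61 almost at 0.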

How the results depend on the processing

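At an unadjusted p under 0.05, the 842 differing transcripts became 1391 with DESeq2's Wald test, and leaving out 1 embryo at a time gave 533 to 1699. Without the embryo block, which ignores that both otocysts of a pair share an embryo, 342 differed, and the count for the mean of both effects, 1988, became 589. That count was 1119 to 3134 as embryos were left out. After adjustment, against 0 in the main analysis, the difference had 64 transcripts with DESeq2 and 1 each on log2(TPM + 1) and log2(TPM + 0.1), and the mean had 565 with DESeq2, 3 with at least 10 counts in every library, 2 without the block and 1 on log2(TPM + 1) without embryo 51. The median correlation between embryos was 0.0581 for the same construct and 0.0742 for different constructs with at least 10 counts in every library, against 0.00734 and 0.0182.

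On TPM the median of all transcripts shifted to -0.19 (log2(TPM + 1)) and -0.24 (log2(TPM + 0.1)) in the difference, and to -0.13 and -0.17 in the mean, but to -0.02 and -0.05 for difference and mean on log2(TPM + 1) without embryo 51. Small positive values turned negative on log2(TPM + 1) and log2(TPM + 0.1): differences of CTH (-0.015 and -0.015), DCTD (-0.010 and -0.010), XPO1 (-0.011 and -0.013), WDR77 (-0.037 and -0.038), CTSZ (-0.0075 and -0.0079), UTP15 (-0.0098 and -0.010), CRELD2 (-0.047 and -0.049), CANX (-0.066 and -0.067) and BAG3 (-0.054 and -0.055), and the mean effect of ID1 (-0.019 and -0.019). The cause was not tested. Of 1422 alternatives run for the 95 single-gene results with an unadjusted p under 0.05, 1167 kept both direction and threshold, 235 kept the direction alone, and 20 are those just listed. Scarce transcripts such as WNT4, WNT6, CDKN1A and PLPPR4 rest on few estimated counts per otocyst.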

Other observations

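CP, which encodes the copper-carrying ferroxidase ceruloplasmin, is on the study's DNBCAT list and was chosen here after its values were seen. It was at 3.16, 7.56 and 3.51 CPM in the DNBCAT right otocysts, and at 0 CPM in all 3 left ones, which with a limit of 3 counts per library makes the right side at least 22.8-fold higher. With mCherry it was at 2.07, 2.93 and 3.16 CPM on the right, against 7.98, 0 and 6.02 CPM on the left. An mCherry left otocyst thus also held no estimated count, and the groups of log2 ratios of CPM did not overlap: 5.03, 6.26 and 5.18 with DNBCAT, against -1.89, 4.92 and -0.91 with mCherry. The adjusted p of its difference in edgeR's fit was 0.935.

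Of the names with an unadjusted mCherry p under 0.05, some had an effect of the same sign but smaller size with DNBCAT. TBC1D1, a GTPase-activating protein, had effects of -0.09 with DNBCAT and -0.26 with mCherry, and ADAMTS18, a secreted protease, of -0.57 with DNBCAT and -0.81 with mCherry. LIPG, the endothelial lipase, had effects of 0.04 with DNBCAT and 0.34 with mCherry. None of these 3 had a difference with an unadjusted p under 0.05, and they too were chosen after their values were seen.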
